A study of Mus musculus with 12 samples.

Results

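Undifferentiated mouse embryonic stem (ES) cells labelled as Smad4 knockout (S4KO) were set against wild-type (WT) ES cells at day 0, over all genes. The comparison takes 4 of the 12 libraries of the series, 2 per genotype, chosen by the titles of the samples. Every group is labelled as the cell line E14Tg2a.IV, a feeder-independent line of the E14Tg2a family. Beside S4KO and WT at day 0, values are given for S4KO and WT embryoid bodies 4 days after LIF was withdrawn (day 4), and for undifferentiated Smad2 and Smad3 double-knockout cells (S23DKO), 2 libraries each. How Smad4 was disrupted, how many clones were used, and whether replicates came from separate cultures is unstated in the labels. The p-values therefore measure the spread between these libraries, which may be technical. The question is which transcripts differ in ES cells without Smad4 before any differentiation.

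Smad4 is the common partner of the receptor-regulated Smads. Nodal, activin and TGF-beta receptors phosphorylate Smad2 and Smad3, BMP receptors phosphorylate Smad1, Smad5 and Smad9, and each activated pair enters the nucleus with Smad4. In mouse ES cells BMP signalling drives the Id genes, which encode inhibitors of basic helix-loop-helix factors, and autocrine Nodal signalling drives Lefty1 and Lefty2, secreted inhibitors of Nodal itself.

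The libraries held 49523324 and 50166446 counts in S4KO at day 0 and 49829720 and 51353258 counts in WT at day 0. The WT day 0 libraries stood apart from all others. Transcripts of cytosolic ribosomal proteins took 4.92% and 7.73% of the counts in S4KO at day 0, against 14.8% and 10.9% in WT at day 0, and 4.92% to 6.45% in the other 8 libraries. The S4KO libraries also went against a feature of their labelled line. E14Tg2a was isolated as a line without functional Hprt, the purine-salvage enzyme, and Hprt stood at 212 and 203 CPM in S4KO, against 0.455 and 0.627 CPM in WT (CPM, the usual depth-scaled count, here after TMM scaling). In S23DKO at day 0 Hprt was at 0.724 and 0.455 CPM. A difference in parental line and the loss of Smad4 cannot be told apart in any comparison of S4KO with WT or S23DKO. Markers of the ES cell state were present: Pou5f1, the core pluripotency factor, was at 958 and 1260 CPM in S4KO and at 2160 and 2170 CPM in WT. The summed level of 16 feeder-cell markers was 70.04 and 99.61 CPM in S4KO and 84.01 and 104.5 CPM in WT. Single markers were less alike: of the 14 tested, 3 had a positive and 10 a negative log2 fold change of S4KO against WT, with a median of -1.58. By the test described below 1 was higher and 2 were lower.

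Across the genome 1955 genes were higher and 1708 lower in S4KO than in WT at day 0, of 18693 tested with edgeR's quasi-likelihood test at an adjusted p below 0.05. These calls are 19.6% of the genes tested, 10.5% higher and 9.14% lower. The day 0 counts of each list are to be read beside those shares. The number of calls depended on which library was left out. Each such fit leaves 1 library in a group, so a lost call does not show that a difference was absent. Without WT replicate 1 there were 42 calls, without S4KO replicate 1 there were 60, and without WT replicate 2 there were 1354, while 3609 stood without S4KO replicate 2. The sign of all 3663 calls was the same in each of these 4 fits, and 27 genes were called in every one of them. The deposited FPKM values, tested with limma on log2(FPKM + 0.1), gave 2552 higher and 1389 lower, with the median of all genes at 0.15 on the log2 scale in place of 0.01. Fold changes below are log2 values ± SE from edgeR with n = 2 libraries per group, and a gene at 0 in a group is given as at least N-fold, taking 3 counts summed over its group, which covers counting error only.

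The difference followed transcript length. Over the 14057 expressed genes (1 CPM or more on average), the median log2 fold change at day 0 was -0.67 in the shortest of 5 equal bins by exon length (up to 2369 bases) and 0.57 in the longest (7482 bases or more). With offsets that remove each library's trend with length and GC content, these medians became -0.30 and 0.06, and the calls became 1502 higher and 1889 lower, of which 2433 were calls of the same sign as before. At day 4 the same bins had medians of -0.02 and -0.03, and for S4KO against S23DKO at day 0 they were 0.08 and -0.03. The trend was thus present in comparisons that use the WT day 0 libraries. Its part in single genes was not tested, and list counts with the offsets are given beside those without.

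**Figure D1:**
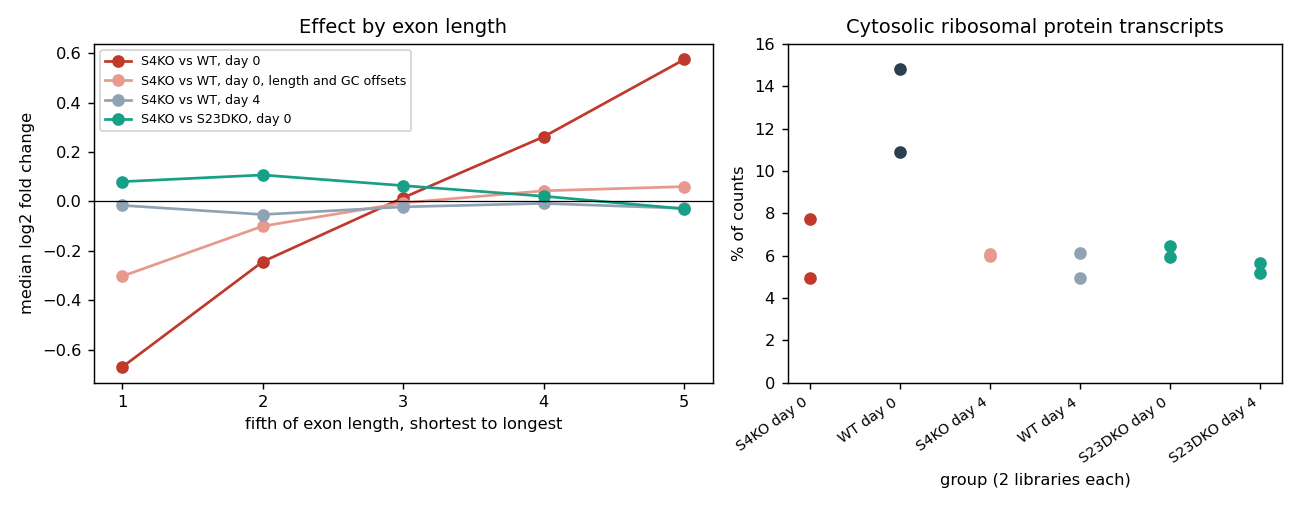
Left: median log2 fold change (vertical) over 5 equal bins of genes by exon length (horizontal), for S4KO against WT at day 0 with and without length and GC offsets, at day 4, and for S4KO against S23DKO at day 0. Right: share of counts from cytosolic ribosomal protein genes in each library, 1 point per library. The day 0 line climbs by exon length from -0.67 to 0.57 and the WT day 0 points lie at 14.8% and 10.9%, above all others.

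The Smad transcripts themselves were not lost. Smad4, the targeted gene, had 100 and 79.6 CPM in S4KO and 49.6 and 52.3 CPM in WT. Both knockout libraries were above both WT libraries, and Smad4 rose by the test (0.82 ± 0.20, adjusted p = 0.0187). A count over the whole gene does not check a knockout whose edited exon is not given. Smad2 had 81.6 and 58.2 CPM in S4KO against 29.5 and 38.8 CPM in WT (1.03 ± 0.25, adjusted p = 0.0195), and Smad3 had 19.6 and 21.5 CPM against 9.68 and 11.5 CPM in WT (0.96 ± 0.26, adjusted p = 0.0271). Among the BMP-responsive Smads, Smad5 was called higher (0.69 ± 0.21, adjusted p = 0.0419), while Smad1 gave 0.71 ± 0.24 (adjusted p = 0.0576) and Smad9 gave 0.06 ± 0.44 (adjusted p = 0.953). The inhibitory Smad7, which blocks type I receptors and is itself induced by the pathway, fell to 15 and 23.4 CPM in S4KO, against 55.5 and 58.3 CPM in WT (-1.57 ± 0.39, adjusted p = 0.0198). Smad6, the other inhibitory Smad, gave -0.27 ± 0.57 (adjusted p = 0.779). None of these 5 calls stood without WT replicate 1 (adjusted p 0.125 to 0.207), WT replicate 2 (0.0564 to 0.194) or S4KO replicate 1 (0.109 to 0.186), and those of Smad3 and Smad5 were also lost without S4KO replicate 2 (up to 0.0715). Smad2 (0.0992) and Smad5 (0.409) were not called with length and GC offsets. At day 4 no Smad named here was called between S4KO and WT, Smad4 having a log2 fold change of 0.03 (adjusted p = 0.980).

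Of 19 transcripts listed as induced by BMP signalling 6 were called lower in S4KO and 0 higher, beside 9.14% and 10.5% of all genes tested. Id genes were 4 of the 6. Id1 (ENSMUSG00000042745, chromosome 2, 152736251 to 152737410, build mm10) had 4.70 and 4.60 CPM in S4KO, against 48.8 and 51.3 CPM in WT (-3.43 ± 0.46, adjusted p = 0.00516). Id2, which restrains lineage commitment in several tissues, had 7 and 6.62 CPM in S4KO against 18.5 and 20.2 CPM in WT (-1.51 ± 0.27, adjusted p = 0.00872). Id3 had 5.16 and 7.02 CPM in S4KO against 27.9 and 26.1 CPM in WT (-2.15 ± 0.67, adjusted p = 0.0446). Id4 had 3.15 and 3.75 CPM in S4KO against 8.24 and 8.91 CPM in WT (-1.31 ± 0.35, adjusted p = 0.0264). For all 4 genes both S4KO libraries lay below both WT libraries. The share of all genes with such a separation was not counted, so it is a description only. Without S4KO replicate 1 none of the 4 was called (adjusted p 0.0543 for Id1 to 0.240 for Id3), and without WT replicate 1 only Id1 was (0.0376, the others up to 0.173). Without WT replicate 2, or without S4KO replicate 2, Id1 and Id2 were called and Id3 and Id4 were not (up to 0.106 and 0.0942). Id3 was not called with length and GC offsets (0.0868). With those offsets and a library left out, log2 fold changes were -2.62 to -3.08 for Id1 and -1.43 to -1.59 for Id2. They were -1.60 to -1.64 for Id3 and -1.30 to -1.80 for Id4.

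The start regions of Id2, Id3 and Id4 are shown because these genes fell together. Each runs from 250 bases before to 50 bases after the RefSeq start (build GRCm38.p6), 5′ to 3′ on the gene's strand. They lie at chr12:25096043-25096342 (minus strand), chr4:136143572-136143871 (plus strand) and chr13:48260866-48261165 (plus strand). Capitals mark GGCGCC, a GC-rich element bound by BMP Smads, and CAGAC, a Smad4-type box, on either strand. No overlap occurred between them.
Id2: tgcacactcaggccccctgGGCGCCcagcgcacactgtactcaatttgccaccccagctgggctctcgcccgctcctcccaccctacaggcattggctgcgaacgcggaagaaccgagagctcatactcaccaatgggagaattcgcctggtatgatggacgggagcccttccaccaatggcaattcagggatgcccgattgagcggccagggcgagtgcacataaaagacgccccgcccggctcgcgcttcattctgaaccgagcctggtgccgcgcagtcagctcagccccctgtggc
Id3: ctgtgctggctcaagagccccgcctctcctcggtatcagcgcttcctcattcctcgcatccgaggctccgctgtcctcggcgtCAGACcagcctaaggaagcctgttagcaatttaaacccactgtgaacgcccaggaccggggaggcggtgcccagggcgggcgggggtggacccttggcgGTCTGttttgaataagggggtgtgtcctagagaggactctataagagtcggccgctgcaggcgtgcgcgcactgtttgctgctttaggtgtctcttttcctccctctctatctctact
Id4: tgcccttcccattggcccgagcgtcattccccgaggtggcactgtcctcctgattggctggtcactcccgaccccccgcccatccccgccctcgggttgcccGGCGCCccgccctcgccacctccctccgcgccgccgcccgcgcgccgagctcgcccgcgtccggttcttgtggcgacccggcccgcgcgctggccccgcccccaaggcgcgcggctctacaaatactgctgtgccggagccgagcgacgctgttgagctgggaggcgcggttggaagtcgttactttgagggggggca
The Id2 and Id4 windows hold GGCGCC once each and no CAGAC, and the Id3 window holds CAGAC 2 times and no GGCGCC. Of 27025 mouse promoter windows of the same length, 12% hold GGCGCC and 49.7% hold CAGAC, so the matches are a description of these windows and not evidence of a bound site.

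The other called members of the BMP list were Smad7 and Bambi, a decoy receptor (11.7 and 11.7 CPM in S4KO against 20.4 and 20.7 CPM in WT, -0.81 ± 0.23, adjusted p = 0.0309). The list's median was -0.27, against 0.01 over all genes, with 9 members positive and 10 negative. Length and GC offsets left 5 members lower and 0 higher, and the median turned to 0.07. Several listed targets that mark later mesoderm or trophoblast were near 0 in both genotypes: Dlx5, Cdx2, Hand1, Nog and Atoh8 stayed below 0.8 CPM in all 4 libraries. Tbx3 (0.45 ± 0.44, adjusted p = 0.503), Gata2 (0.58 ± 0.41, 0.342), Gata3 (0.13 ± 0.52, 0.896), Dusp9 (-0.41 ± 0.35, 0.443), Msx1 (0.55 ± 0.58, 0.545) and Msx2 (0.12 ± 0.35, 0.846) did not pass. Of the 6 calls, 1 stood without WT replicate 1, 0 without S4KO replicate 1, 2 without WT replicate 2 and 3 without S4KO replicate 2 (highest adjusted p 0.188, 0.240, 0.120 and 0.0942 in that order).

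Of 16 direct and feedback targets of Nodal signalling tested, 5 were called lower and 0 higher, beside 9.14% and 10.5% of all genes tested. Lefty1 (chromosome 1, 180935022 to 180938400) had 19 and 30.7 CPM in S4KO, against 226 and 225 CPM in WT (-3.18 ± 0.63, adjusted p = 0.0103). Its neighbour Lefty2 had 20.7 and 38.1 CPM in S4KO and 151 and 164 CPM in WT, but did not pass (-2.42 ± 0.84, adjusted p = 0.0637). Otx2, a homeobox factor of the epiblast, fell to 13.9 and 8.25 CPM in S4KO, against 47.6 and 57.5 CPM in WT (-2.24 ± 0.41, adjusted p = 0.00874). Ldhb, a lactate dehydrogenase subunit, had 122 and 294 CPM in S4KO against 983 and 862 CPM in WT (-2.15 ± 0.42, adjusted p = 0.0101), and Trh, a neuropeptide precursor, had 126 and 120 CPM against 311 and 343 CPM in WT (-1.41 ± 0.45, adjusted p = 0.0491). Smad7 was the other call, and the list median was -0.62, with 4 members positive and 11 negative. Nodal itself had 54.5 and 57.6 CPM in S4KO against 99 and 102 CPM in WT (-0.84 ± 0.43, adjusted p = 0.185). Tdgf1, the Nodal co-receptor, gave 0.01 ± 0.36 (adjusted p = 1), and Pmepa1, Skil, Foxh1, Pcsk6, Sall1 and Arl4d did not pass either. Cer1 was at 0 counts in all 4 libraries.

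None of the 5 Nodal calls stood without WT replicate 1 (adjusted p 0.0907 to 0.171) or without S4KO replicate 1 (0.0568 to 0.203), while 3 stood without WT replicate 2 (up to 0.134) and 4 without S4KO replicate 2 (up to 0.133). With length and GC offsets 4 targets were lower and 1 higher with a median of -0.39. Trh was not called (0.233), and Pcsk6, a proprotein convertase, was the 1 called higher (0.95, adjusted p = 0.0288). With those offsets and a day 0 library left out, log2 fold changes were -2.46 to -2.54 for Lefty1 and -2.20 to -2.80 for Otx2. They were -1.36 to -2.33 for Ldhb, -0.64 to -1.12 for Trh and -1.23 to -1.46 for Smad7. At day 4, 2 of the 16 were called between S4KO and WT, both lower: Cer1 (-7.42, adjusted p = 0.00143), a secreted Nodal antagonist, and Pmepa1 (-1.96, adjusted p = 0.0337), whose call was lost without any 1 of the 4 day 4 libraries (0.0567 to 0.127). Of the BMP list Id1 and Msx1 were called lower at day 4, Msx1 not without S4KO day 4 replicate 1 (0.107). The Id1 difference (2.62 and 4.88 CPM in S4KO against 11 and 29.3 CPM in WT, -2.43, adjusted p = 0.0227) was not called when WT day 4 replicate 2 (0.0616) or S4KO day 4 replicate 1 (0.192) was left out. The S4KO effect on Id1, Lefty1, Otx2 or Smad7 did not differ detectably between the days (adjusted p 0.357, 0.149, 0.497 and 0.928), which does not show that it was the same. Lefty1 at day 4 had 67 and 20.2 CPM in S4KO against 41.4 and 111 CPM in WT (-0.80, adjusted p = 0.618). Otx2 (-1.55, adjusted p = 0.0823) and Smad7 (-1.43, adjusted p = 0.0936) were not called at day 4 either.

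**Figure D2:**
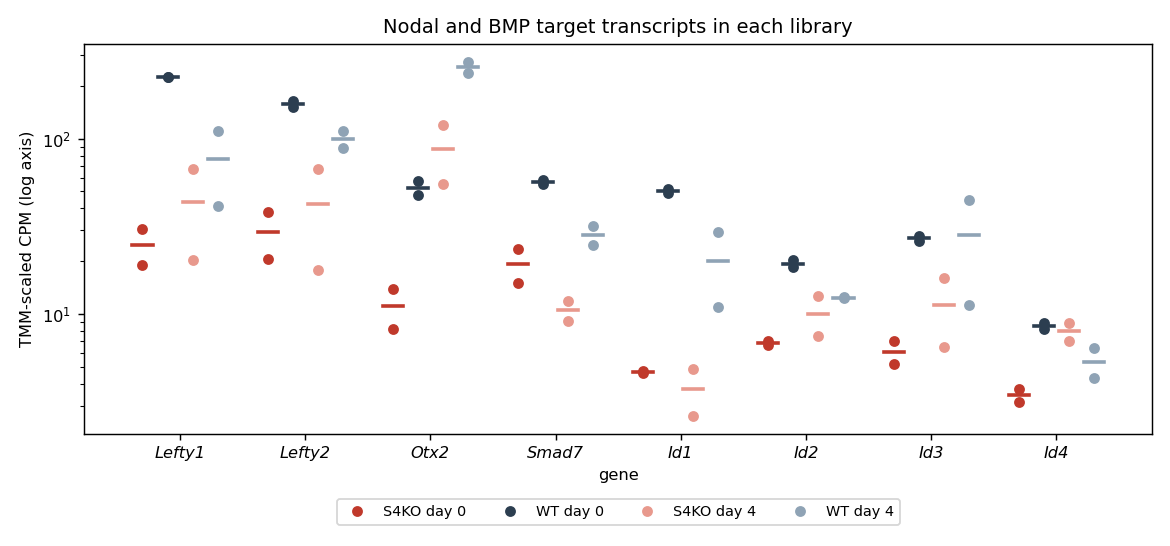
TMM-scaled CPM (log axis) of 4 Nodal and 4 BMP target genes in each library, for S4KO and WT at day 0 and at day 4; points are libraries and bars are group means of 2. At day 0 the S4KO points lie below the WT points for each of the 8 genes, the gap being widest for Id1 (4.70 and 4.60 against 48.8 and 51.3 CPM) and Lefty1.

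S4KO was also set against S23DKO cells, in which Smad2 and Smad3 but not Smad4 were targeted. Hprt was near 0 in S23DKO as in WT, so the limit on parental line holds here too. The 9 listed Y-linked genes summed to 0.137 and 0.103 CPM in S23DKO at day 0. Their sums were 101.9 and 92.63 CPM in S4KO and 97.81 and 96.71 CPM in WT. The part of these features in the contrast was not tested. Between these knockouts 402 genes were higher and 632 lower in S4KO at day 0 (5.53% of the genes tested, 2.15% higher and 3.38% lower). Without S23DKO replicate 1 the count was 1618, without S23DKO replicate 2 it was 315, without S4KO replicate 1 it was 350 and without S4KO replicate 2 it was 600. Of the BMP targets 9 of 19 were lower in S4KO and 0 higher, and of these Id1, Id2 and Id3 were also called against WT. Id4 (adjusted p = 0.114), Smad7 (0.285) and Bambi (0.298), called against WT, were not called against S23DKO. Smad7 and Bambi lie on chromosome 18. Its 357 expressed genes had a median of -0.435 in S4KO against S23DKO, beside 0.046 over all expressed genes. Id1 had 4.70 and 4.60 CPM in S4KO against 80.0 and 49.1 CPM in S23DKO (-3.8 ± 0.47, adjusted p = 0.00147), and Id2 had 7 and 6.62 CPM against 87.0 and 127 CPM in S23DKO (-3.97 ± 0.30, adjusted p = 0.000111). Msx2, Gata2, Gata3 and Dusp9 were lower in S4KO too, with log2 fold changes from -2.75 for Dusp9 to -4.99 for Gata3. Gata2 had 2.24 and 4.2 CPM in S4KO and 34.7 and 31.3 CPM in S23DKO, beside 2.44 and 1.86 CPM in WT, so the S23DKO libraries were the high ones. The 16 trophectoderm markers moved with these genes: 7 were lower and 0 higher in S4KO than in S23DKO, and their summed level was 354.8 and 363.3 CPM in S4KO and 3649 and 4494 CPM in S23DKO, beside 537.4 and 578.2 CPM in WT. Their part in the differences from S23DKO was not tested. Lefty1 went the other way, with 19 and 30.7 CPM in S4KO against 0.0587 and 0.0620 CPM in S23DKO (8.63 ± 0.95, adjusted p = 0.000773), as did Lefty2 (6.56 ± 1.09, adjusted p = 0.00649). Otx2 was lower in S4KO than in S23DKO (-1.77 ± 0.41, adjusted p = 0.0298). Of the 9 BMP targets Id3, Smad9 and Hand1 lost their calls without one or more of the 4 libraries (up to 0.182 without S4KO replicate 1, 0.171 without S23DKO replicate 1, 0.0907 without S23DKO replicate 2 and 0.140 without S4KO replicate 2). Lefty2 was lost without S23DKO replicate 2 (0.0878), and Otx2 without S23DKO replicate 1 (0.106), S4KO replicate 1 (0.0626) or S4KO replicate 2 (0.160).

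Upstream of the Smads 3 of 21 ligands, 5 of 17 receptors and 2 of 22 antagonists were called, beside 19.6% of all genes tested. Of 21 ligands of the TGF-beta family tested, 3 were called lower and 0 higher: Inhba, an activin subunit, was at 0 counts in both S4KO libraries and at 0.479 and 0.930 CPM in WT, at least 23.6-fold lower. Bmp8b had 0.849 and 0.813 CPM in S4KO against 1.70 and 2.59 CPM in WT, and Gdf1, a Nodal partner, had 0.0207 and 0.0793 CPM in S4KO against 3.88 and 0.259 CPM in WT. The WT replicates for Gdf1 lie far apart, and its log2 fold change of -5.29 became an uncalled one without WT replicate 1 (adjusted p = 0.460). Of 17 receptors and co-receptors 4 were higher (Bmpr1a, Acvr1b and Tgfbr1, which are type I receptors, and Tgfbr3, a co-receptor) and 1 lower, Cfc1, a Nodal co-receptor (0 and 0.159 CPM in S4KO, 1.73 and 0.930 CPM in WT). Bmpr1a had 113 and 65.4 CPM in S4KO against 39.3 and 43.6 CPM in WT (1.11 ± 0.31, adjusted p = 0.0322). With length and GC offsets 2 ligands stayed lower, and 1 receptor was called higher and 2 lower. Of 22 extracellular antagonists 2 were lower, Lefty1 and Bambi, and 0 higher, and with length and GC offsets 2 were lower and 2 higher. Without WT replicate 1, and without S4KO replicate 1, none of the ligand and receptor calls stood (adjusted p 0.114 to 0.460 and 0.113 to 0.349). Without WT replicate 2, 1 of the 3 ligands and 1 of the 5 receptors stood (up to 0.179 and 0.143). Without S4KO replicate 2, 0 and 3 did (up to 0.0835 and 0.0920).

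Few genes of the pluripotency network were called, beside 10.5% higher and 9.14% lower over all genes tested, though a gene that did not pass may still differ. The median was 0.379 for the naive list and -0.40 for the core list, and 0.373 and 0.002 with length and GC offsets. Of 20 naive pluripotency genes 1 was called higher (Tet2, a methylcytosine oxidase, 177 and 75.8 CPM in S4KO, 34.2 and 40.3 CPM in WT) and 1 lower (Dppa5a, 1110 and 1570 CPM in S4KO, 4030 and 2640 CPM in WT). Of 16 core genes 1 was called, Rif1, a telomere and replication-timing factor (635 and 240 CPM in S4KO against 118 and 137 CPM in WT, 1.78 ± 0.40, adjusted p = 0.0144). Nanog (0.35 ± 0.24, adjusted p = 0.333), Esrrb (0.41 ± 0.45, 0.562), Sox2 (-0.38 ± 0.31, 0.415) and Pou5f1 (-0.97 ± 0.32, 0.0560) did not pass. Of 17 genes of the formative state, which follows the naive one, 4 fell and 0 rose, with a list median of -0.73, and with length and GC offsets 3 fell and 1 rose with a median of -0.62. Beside Otx2 these were Fgf15 (2.63 and 2.97 CPM in S4KO against 13.3 and 15.5 CPM in WT, -2.36 ± 0.34, adjusted p = 0.00583), Pou3f1, a POU-domain factor (2.28 and 1.96 CPM in S4KO against 8.89 and 11.5 CPM in WT, -2.27 ± 0.71, adjusted p = 0.0457), and the de novo DNA methyltransferase Dnmt3a (63.0 and 51.2 CPM in S4KO against 92.4 and 97.4 CPM in WT, -0.73 ± 0.21, adjusted p = 0.0354). Without WT replicate 1, 1 of the 4 formative calls stood (0.0490 to 0.169), without S4KO replicate 1 none did (0.0568 to 0.197), and without WT replicate 2 or S4KO replicate 2, 2 did (up to 0.130 and 0.139). The 3 naive and core calls were lost without WT replicate 1 (0.137 to 0.235) or S4KO replicate 1 (0.141 to 0.297), and Tet2 and Rif1 without WT replicate 2 (0.118 and 0.0626). With length and GC offsets Pou3f1 (0.111) and Tet2 (0.136) were not called.

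Of 23 genes of extraembryonic endoderm tested, 8 were higher and 1 lower in S4KO at day 0, beside 10.5% and 9.14% of all genes tested. The median of the list was 0.75. Gata4, a zinc-finger factor that specifies primitive endoderm, had 3.15 and 3.53 CPM in S4KO against 1.03 and 1.08 CPM in WT (1.66 ± 0.30, adjusted p = 0.00834). Its relative Gata6 had 1.04 and 2.85 CPM in S4KO against 0.407 and 0.346 CPM in WT (2.36 ± 0.54, adjusted p = 0.0157). Pdgfra, a receptor that marks the lineage, had 1.74 and 1.72 CPM in S4KO against 0.240 and 0.562 CPM in WT (2.09 ± 0.42, adjusted p = 0.0105). Foxa2, a forkhead factor of endoderm, had 0.269 and 0.198 CPM in S4KO and no counts in WT, at least 6.83-fold higher. Lamc1, a laminin chain of the basement membrane, had 879 and 394 CPM in S4KO against 157 and 218 CPM in WT (1.76 ± 0.39, adjusted p = 0.0142). For each of these genes the groups did not overlap, a description given without the share over all genes, which was not counted.

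At day 4 13 of the same 23 genes were lower and 0 higher in S4KO, with a median of -3.17. Gata4 had 3.89 and 3.27 CPM in S4KO at day 4 against 28.7 and 39.9 CPM in WT, and Pdgfra had 4 and 4.54 CPM against 34.9 and 28.3 CPM in WT. The day 4 calls of Gata6, Sox7 and Pdgfra were lost without S4KO day 4 replicate 1 (up to 0.138), and that of Sox7 also without WT day 4 replicate 1 (0.0567). Over all genes at day 4 127 were higher and 196 lower in S4KO (1.73% of the genes tested, 0.679% higher and 1.05% lower). The S4KO effect at day 4 minus that at day 0 passed for 28 genes, 0.15% of those tested, 2 of them positive (0.0107%) and 26 negative (0.139%). The endoderm list held 8 of the 26. The difference was -4.92 ± 0.42 for Gata4 (adjusted p = 0.00043), -4.98 ± 0.56 for Pdgfra (0.00412), -5.54 ± 0.74 for Gata6 (0.0149) and -2.86 ± 0.32 for Lama1 (0.00412). Over these genes with Sox7 and Foxa2, calls of the difference were lost without WT day 0 replicate 1 for Gata6 (0.107), without WT day 0 replicate 2 for Gata6 and Sox7 (up to 0.0641), without WT day 4 replicate 1 for Gata6 and Sox7 (up to 0.0825), without S4KO day 0 replicate 1 for Sox7 and Foxa2 (up to 0.0512) and without S4KO day 4 replicate 1 for Sox7 (0.0772).

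The streak gene Eomes, a T-box factor, followed the same course, with 8.28 and 11.3 CPM in S4KO against 3.95 and 4.24 CPM in WT at day 0 (1.26 ± 0.25, adjusted p = 0.0104) and 12.2 and 15.8 CPM against 249 and 241 CPM at day 4 (difference -5.39 ± 0.37, adjusted p = 0.000175). Of 18 streak genes 4 were higher and 1 lower at day 0, beside 10.5% and 9.14% of all genes tested. The streak median was -0.64, with 7 members positive and 10 negative. At day 4, 14 streak genes were lower, beside 1.05% of all genes tested. The offsets left 4 higher and 0 lower at day 0, with a median of -0.08. Of the 5 day 0 calls 0 stood without WT replicate 1 (0.113 to 0.158), 1 without WT replicate 2 (up to 0.202), 1 without S4KO replicate 1 (up to 0.188) and 3 without S4KO replicate 2 (up to 0.136). The 4 were Eomes, Gata6, Foxa2 and Evx1, and the 1 was Fgf8 (0.104 and 0.0793 CPM in S4KO, 0.383 and 0.865 CPM in WT). The endoderm calls at day 0 of Gata4, Gata6, Sox7, Pdgfra, Lamc1, Lama1 and Foxa2 were all lost without WT day 0 replicate 1 (0.0971 to 0.196), and 1 stood without S4KO day 0 replicate 1 (up to 0.275), 3 without WT day 0 replicate 2 (up to 0.154) and 5 without S4KO day 0 replicate 2 (up to 0.0732). The Eomes call at day 0 was lost without WT replicate 1 (0.113) or S4KO replicate 1 (0.0561), and its difference between days stood in each of the 8 fits that left out a library. With length and GC offsets 8 endoderm genes were higher and 2 lower, and Lama1 (0.0576) was not called.

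**Figure D3:**
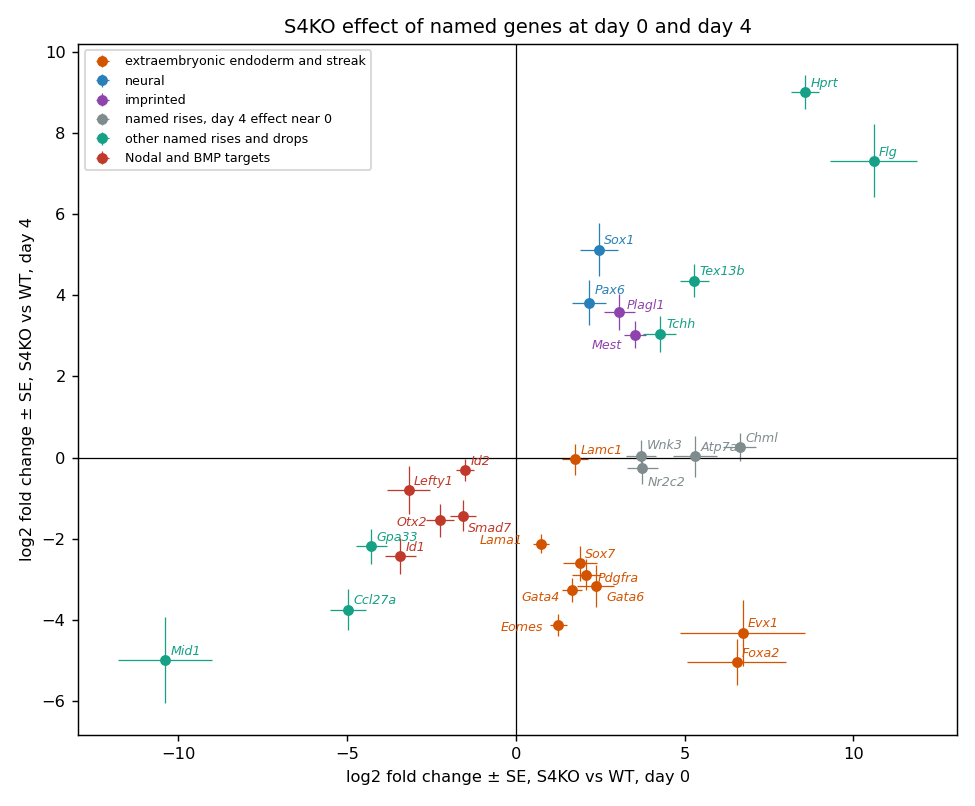
Log2 fold change ± SE of S4KO against WT at day 0 (horizontal) and at day 4 (vertical) for genes named in the text, coloured by group. Endoderm and streak genes that were higher in S4KO at day 0 lie below 0 at day 4, Lamc1 only just at -0.04, Hprt, Flg, Tex13b and Tchh are high on both axes, and Chml, Atp7a, Nr2c2 and Wnk3 lie near 0 at day 4; the positions of Foxa2, Evx1 and Flg rest on 0 counts in WT at day 0 and are no measure of size.

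Of 15 neural genes tested 3 were called higher and 0 lower in S4KO at each day. Of all genes tested 10.5% were higher at day 0 and 0.679% at day 4. The neural medians were 0.80 at day 0 and 1.90 at day 4, with 3 members negative at each. Sox1, an early neural plate factor, had 9.26 and 7.02 CPM in S4KO against 1.53 and 1.43 CPM in WT at day 0 (2.46 ± 0.57, adjusted p = 0.0164), and 7.78 and 24.4 CPM against 0.571 and 0.345 CPM at day 4 (5.12 ± 0.65, adjusted p = 0.00358). Pax6, a paired-box factor of neural progenitors, had 11.9 and 9.50 CPM in S4KO against 2.44 and 2.36 CPM in WT at day 0 (2.16 ± 0.51, adjusted p = 0.0174), and 19 and 15.1 CPM against 1.33 and 1.09 CPM at day 4 (3.82 ± 0.55, adjusted p = 0.00663). With the offsets 4 were higher and 0 lower at day 0. At day 0 the calls of Sox1 and Pax6 were lost without WT replicate 1 (0.133 and 0.137), WT replicate 2 (0.0836 and 0.0866) or S4KO replicate 1 (0.101 and 0.107), and both stood with length and GC offsets. Pax6 was not called at day 4 when WT replicate 1 (0.0545) or WT replicate 2 (0.051) of that day was left out. Sox1 lies on chromosome 8, whose genes were higher in S4KO as a whole.

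Of 21 genes of the interferon response and of antigen presentation tested, 7 fell and 0 rose in S4KO at day 0. The list median was -0.97, and 9.14% of all genes tested were lower and 10.5% higher. Psmb8 (ENSMUSG00000024338, chromosome 17, 34197721 to 34201454), a catalytic subunit of the immunoproteasome, had 0.0828 and 0.218 CPM in S4KO against 4.41 and 4.19 CPM in WT (-4.81 ± 0.66, adjusted p = 0.00525). Psmb9, its neighbour and a second catalytic subunit, had 0.994 and 1.47 CPM in S4KO against 7.07 and 6.08 CPM in WT (-2.41 ± 0.49, adjusted p = 0.0107). H2-K1, a class I histocompatibility heavy chain with near-identical relatives that could share its reads, had 8.08 and 9.34 CPM in S4KO against 45.5 and 40 CPM in WT (-2.30 ± 0.40, adjusted p = 0.00793). Ifitm1, an interferon-induced membrane protein that ES cells also express, had 152 and 216 CPM in S4KO against 602 and 449 CPM in WT (-1.51 ± 0.33, adjusted p = 0.0133). Oasl2, Irf1 and Bst2 completed the 7.

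Beyond the list, Gbp2 and Gbp2b, interferon-inducible GTPases, and Psme2, an activator subunit of the immunoproteasome, were picked out after their values were seen. Gbp2 had 0.953 and 1.23 CPM in S4KO against 10.2 and 11.8 CPM in WT (-3.33 ± 0.72, adjusted p = 0.0130), and Gbp2b had 0.725 and 0.852 CPM against 6.69 and 6.92 CPM in WT (-3.10 ± 0.76, adjusted p = 0.0193). Psme2 had 10.3 and 14.9 CPM in S4KO against 91.3 and 69.9 CPM in WT (-2.67 ± 0.43, adjusted p = 0.00721); its near-identical copy Psme2b gave -2.94, and reads may be split between them. The start regions of Gbp2 and Gbp2b are shown for the element they share, at chr3:142620413-142620712 and chr3:142594597-142594896 (plus strand, GRCm38.p6, from RefSeq as above). Capitals mark the core of the interferon-stimulated response element, GAAA, any 2 bases, then GAAA, searched on both strands and found here on the minus strand.
Gbp2: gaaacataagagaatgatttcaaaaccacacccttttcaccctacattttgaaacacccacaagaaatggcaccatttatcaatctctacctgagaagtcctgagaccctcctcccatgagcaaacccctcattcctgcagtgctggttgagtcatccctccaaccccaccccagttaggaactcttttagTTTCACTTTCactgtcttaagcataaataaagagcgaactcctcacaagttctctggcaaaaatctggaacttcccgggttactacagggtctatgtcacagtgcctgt
Gbp2b: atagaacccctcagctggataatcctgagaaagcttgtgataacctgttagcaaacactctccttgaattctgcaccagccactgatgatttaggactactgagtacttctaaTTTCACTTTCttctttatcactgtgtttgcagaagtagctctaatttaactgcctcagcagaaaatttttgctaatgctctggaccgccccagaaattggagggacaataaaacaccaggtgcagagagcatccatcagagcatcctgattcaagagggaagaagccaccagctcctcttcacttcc
The element occurs once in each window and in 3.49% of the 27025 promoter windows. It is also in the window of Bst2, and not in those of Psmb8, Psmb9, H2-K1, Ifitm1, Oasl2, Irf1 or Psme2. Of the 7 listed calls 1 stood without WT replicate 1 (0.0426 for Psmb8, the others up to 0.174), 0 without S4KO replicate 1 (0.0561 to 0.207), 4 without WT replicate 2 (up to 0.0870) and 7 without S4KO replicate 2. The calls of Gbp2, Gbp2b, Psme2 and Psme2b were lost without WT replicate 1 (0.0907 to 0.117) or S4KO replicate 1 (0.0677 to 0.143), and that of Gbp2b also without WT replicate 2 (0.0558) or S4KO replicate 2 (0.0587). Of the 21, 6 were lower and 0 higher with length and GC offsets. At day 4 Irf1, a transcription factor of the response, was the 1 listed call (-1.45, adjusted p = 0.0402), lost without WT day 4 replicate 1 (0.0803), WT day 4 replicate 2 (0.081) or S4KO day 4 replicate 1 (0.242). Psmb8 at day 4 had 1.79 and 6.19 CPM in S4KO against 10.8 and 17.2 CPM in WT (adjusted p = 0.119).

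The largest differences by the naming rule were headed by Hprt (8.57 ± 0.41, adjusted p = 3.73e-06; at day 4 a log2 fold change of 9, adjusted p = 2.87e-06). Among the genes with stable calls, Tex13b, a germ-cell gene on the X chromosome, had 24.3 and 21.6 CPM in S4KO against 0.743 and 0.432 CPM in WT (5.29 ± 0.42, adjusted p = 0.000340), and was higher at day 4 too (4.36, adjusted p = 0.000550). Tchh, which encodes the hair-follicle protein trichohyalin, had 6.27 and 5.97 CPM in S4KO against 0.312 and 0.324 CPM in WT (4.26 ± 0.49, adjusted p = 0.00255). Its neighbours on chromosome 3, Flg (filaggrin, 93273523 to 93293686) and Hrnr (hornerin, 93319749 to 93333570), were examined after their values were seen. Flg had 2.75 and 5.11 CPM in S4KO and no counts in WT, at least 116-fold higher, and Hrnr had 4.39 and 0.634 CPM and no counts in WT, at least 72.5-fold higher. All 3 genes of this epidermal cluster were called higher at day 4 (adjusted p 0.00835 for Tchh, 0.00429 for Flg and 0.0355 for Hrnr) and higher in S4KO than in S23DKO at day 0 (0.00163, 0.00249 and 0.0233). Against WT at day 0, Tex13b, Tchh and Flg were called without each of the 4 libraries in turn, and Hrnr was lost without WT replicate 1 (0.105) or S4KO replicate 1 (0.0678). At day 4 Tchh was lost without WT replicate 1, and Hrnr without either WT replicate or S4KO replicate 1 (adjusted p 0.0637 for Tchh, and 0.119, 0.107 and 0.173 for Hrnr). Against S23DKO the Hrnr call was lost without S23DKO replicate 2 (0.159) or S4KO replicate 1 (0.109).

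Another set of rises came from genes that were low in the WT day 0 libraries and in no other group. Chml, a Rab escort protein gene, had 37.2 and 19.3 CPM in S4KO against 0.192 and 0.368 CPM in WT at day 0 (6.63 ± 0.49, adjusted p = 0.000196), and 37.9 and 39.2 CPM in S4KO against 40.8 and 23.4 CPM in WT at day 4. Atp7a, the copper-exporting ATPase, had 19 and 5.53 CPM in S4KO against 0.192 and 0.411 CPM in WT at day 0 (5.32 ± 0.65, adjusted p = 0.00345). Nr2c2, an orphan nuclear receptor (3.75 ± 0.46), and Wnk3, a kinase that regulates chloride cotransporters (3.71 ± 0.45), showed the same pattern. For these 4 genes the S4KO effect differed between the days (differences of -6.37, -5.29, -4 and -3.68 in that order, adjusted p 0.000641, 0.0287, 0.0276 and 0.0375). At day 0 in S23DKO they stood at 25.7 and 20, 11.8 and 20.7, 27.4 and 22.8, and 69.4 and 68.7 CPM, and none differed between S4KO and S23DKO by the test (adjusted p 0.0564 to 0.991). The day 0 calls of Atp7a (0.0593) and Nr2c2 (0.0636) were lost without WT replicate 1. The differences between days of Atp7a, Nr2c2 and Wnk3 were lost without WT day 0 replicate 1, WT day 4 replicate 1 or either S4KO day 4 replicate (up to 0.198, 0.121, 0.1 and 0.0694). Without WT day 0 replicate 2 those of Atp7a and Nr2c2 were lost (up to 0.0674), and without S4KO day 0 replicate 1 those of Atp7a and Wnk3 (up to 0.0905).

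The rule also named as higher Zfp708, a zinc-finger gene (6.44), Pdpr, a regulator of pyruvate dehydrogenase phosphatase (4.41), the homeobox gene Meis2 (3.8), the leukocyte tetraspanin Cd37 (3.54), the sodium channel Scn3a (3.54), the imprinted Mest (3.53) and the phosphatase Ptp4a1 (3.35). The symbol Ptp4a1 is carried by a pair of overlapping gene models, the other of which gave -0.28, so the way reads were shared between them is uncertain. Of the 14 rises 7 stood without WT replicate 1 (0.000503 to 0.170), 11 without WT replicate 2 (up to 0.0807), 10 without S4KO replicate 1 (up to 0.198) and 14 without S4KO replicate 2. Zfp708 and Scn3a were lost in 3 of these fits, Cd37, Meis2 and Ptp4a1 in 2, and Atp7a and Nr2c2 in 1. All 14 stood with length and GC offsets.

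Of the drops, Mid1, an X-linked ubiquitin ligase, had 0.248 and 0.396 CPM in S4KO against 382 and 490 CPM in WT (-10.39 ± 1.39, adjusted p = 0.00516). At day 4 the S4KO libraries differed from each other, 1.13 and 35.1 CPM, against 421 and 732 CPM in WT (-5.00, adjusted p = 0.0417). Gpa33, a cell-surface antigen of intestinal epithelium, had 4.16 and 4.02 CPM in S4KO against 74.3 and 84.5 CPM in WT (-4.28 ± 0.47, adjusted p = 0.00211). Enpp2, which encodes the lysophospholipase autotaxin, had 0.393 and 0.258 CPM in S4KO against 7.91 and 6.51 CPM in WT (-4.46 ± 0.55, adjusted p = 0.00346), and the chemokine Ccl27a, whose near-identical copies may share reads, had 0.124 and 0.238 CPM against 6.50 and 5.06 CPM in WT (-4.97 ± 0.53, adjusted p = 0.00207). These 4 were lower at day 4 as well. Bgn, a matrix proteoglycan (-3.48), Myl9, a myosin light chain of contractile cells (-3.66), and Cldn3, a tight-junction claudin (-3.54), were called at day 0 and had log2 fold changes of -0.44, -0.54 and -0.92 at day 4, with no call. Rarres2, Pcsk1n, Scand1, Nrtn, Hist1h3c, Tmem238 and Id1 made up the 14. Rarres2 had 0.207 and 0.218 CPM in S4KO against 11.7 and 1.12 CPM in WT, where the replicates lie far apart, and was not called without WT replicate 1 (0.158) or S4KO replicate 1 (0.11).

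Of the 14 drops 6 stood without WT replicate 1 (Mid1, Ccl27a, Enpp2, Gpa33, Myl9 and Id1; the others up to 0.158), 3 without S4KO replicate 1 (Ccl27a, Enpp2 and Gpa33; the others up to 0.240), and 11 without WT replicate 2 or S4KO replicate 2, where Pcsk1n, Scand1 and Nrtn were lost (up to 0.165 and 0.0978). At day 4 the call of Mid1 was lost without WT replicate 1 (0.0859) or WT replicate 2 (0.0754). That of Gpa33 was lost without either of them (0.0537 and 0.0912) or without S4KO replicate 2 (0.0856), and that of Enpp2 without WT replicate 1 (0.121) or S4KO replicate 1 (0.17).

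Imprinted genes are expressed from 1 parental allele, and their marks are known to drift in cultured ES cells. They were called higher in 10 and lower in 2 of 31 cases, beside 10.5% and 9.14% of all genes tested. Their median was 0.20, with 16 members positive and 15 negative. The offsets left 9 higher and 2 lower, and the median was -0.01. Mest had 120 and 83.3 CPM in S4KO against 6.06 and 11.6 CPM in WT (3.53 ± 0.34, adjusted p = 0.00176), and its call stood without each of the 4 libraries (up to 0.0136). Plagl1, a zinc-finger growth regulator, had 7.14 and 3.69 CPM in S4KO against 0.551 and 0.735 CPM in WT (3.07 ± 0.45, adjusted p = 0.00618). Igf2r, the clearance receptor for Igf2 (1.43 ± 0.29, adjusted p = 0.0112), and Impact, a translational regulator (1.09 ± 0.22, 0.0105), rose too. Cdkn1c, a cyclin-dependent kinase inhibitor, had 10.8 and 10.6 CPM in S4KO against 30.3 and 32.8 CPM in WT (-1.56 ± 0.31, adjusted p = 0.0108). At day 4 Mest (136 and 167 CPM in S4KO, 19.3 and 17.9 CPM in WT) and Plagl1 (17.1 and 16.7 CPM in S4KO, 1.35 and 1.48 CPM in WT) were again higher, and 4 of the 31 were higher and 0 lower. H19, Igf2, Meg3 and Snrpn did not pass at either day. Of the 12 day 0 calls 1 stood without WT replicate 1 (up to 0.270), 1 without S4KO replicate 1 (up to 0.182), 4 without WT replicate 2 (up to 0.249) and 9 without S4KO replicate 2 (up to 0.137), and with length and GC offsets Cdkn1c was not called (0.0635).

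Genes of the cytosolic ribosome and nuclear genes of respiration were lower in S4KO, beside the high share of ribosomal protein transcripts in the WT day 0 libraries. Of 82 cytosolic ribosomal protein genes 68 were called lower and 0 higher, with a median of -1.24, beside 9.14% lower and 10.5% higher over all genes tested. Rps6 had 837 and 1080 CPM in S4KO against 2430 and 2080 CPM in WT (-1.23 ± 0.20, adjusted p = 0.00673), and Rpl27a had 599 and 969 CPM against 2480 and 1900 CPM in WT (-1.48 ± 0.27, adjusted p = 0.00834). Of 92 nuclear genes of oxidative phosphorylation 59 were lower and 0 higher, with a median of -1.14; Cox5b, a cytochrome oxidase subunit, had 88.4 and 131 CPM in S4KO against 347 and 285 CPM in WT. With length and GC offsets 57 ribosomal and 51 respiratory genes were lower, with medians of -0.97 and -0.78. None of the 68 or 59 calls stood without WT replicate 1 (0.0959 to 0.368 and 0.0924 to 0.387) or S4KO replicate 1 (0.0629 to 0.295 and 0.0561 to 0.293). At day 4 the medians of the 2 lists were 0.11 and -0.01. Transcripts of these lists are short, with median exon lengths of 1776 and 1578 bases. Of 13 mitochondrially encoded genes 3 were called higher and 0 lower at day 0, with a median of 0.575. Among them 8 were positive and 5 negative, and with length and GC offsets 1 was called higher and 0 lower.

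Of 353 genes named Zfp, which mostly encode zinc-finger proteins, 53 were higher and 10 lower with a median of 0.32. Over all genes tested 10.5% were higher and 9.14% lower, and the 63 Zfp calls together are near the total share of 19.6%. With length and GC offsets 37 Zfp genes were higher and 26 lower with a median of 0.06. Zfp449 had 25.7 and 16.9 CPM in S4KO against 4.82 and 4.80 CPM in WT (2.15 ± 0.30, adjusted p = 0.00531). Of these 63 calls 0 stood without WT replicate 1 (up to 0.298), 1 without S4KO replicate 1 (up to 0.468), 9 without WT replicate 2 (up to 0.214) and 55 without S4KO replicate 2 (up to 0.151).

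Of 26 adhesion and junction genes 4 were higher and 6 lower, with a median of -0.31, beside 10.5% and 9.14% of all genes tested. With length and GC offsets 5 were higher and 7 lower. Dsp, the desmosomal plaque protein desmoplakin, had 95.7 and 85.3 CPM in S4KO against 23.7 and 26.9 CPM in WT (1.84 ± 0.20, adjusted p = 0.00207), and the desmosomal cadherin Dsg2 had 112 and 77.0 CPM against 21.0 and 26.7 CPM in WT (1.99 ± 0.26, adjusted p = 0.00497). Cdh1, the epithelial cadherin that ES cells express, had 982 and 1020 CPM in S4KO against 410 and 475 CPM in WT (1.18 ± 0.21, adjusted p = 0.00809), while the splicing regulator Esrp1 fell (-1.28 ± 0.23, adjusted p = 0.00839). Of these 10 calls 2 stood without WT replicate 1 (up to 0.138), 3 without S4KO replicate 1 (up to 0.158), 8 without WT replicate 2 (up to 0.0577) and all 10 without S4KO replicate 2. Dsp was among the 27 genes called in every fit that left out a library.

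Of 24 cholesterol synthesis genes 5 were lower and 0 higher, beside 9.14% and 10.5% of all genes tested. Among the 5 were Fdps, farnesyl diphosphate synthase (75.4 and 91.2 CPM in S4KO against 272 and 219 CPM in WT, -1.56 ± 0.26, adjusted p = 0.00779), and Fdft1, squalene synthase (70.4 and 83.5 CPM in S4KO against 193 and 175 CPM in WT, -1.26 ± 0.19, adjusted p = 0.00662). Of 19 genes of copper and iron handling 2 were higher and 6 lower, the drops led by the copper chaperone Atox1 (34.3 and 51.7 CPM in S4KO against 273 and 171 CPM in WT, -2.37 ± 0.35, adjusted p = 0.00618). None of the cholesterol calls stood without WT replicate 1 (0.0959 to 0.246) or S4KO replicate 1 (0.0627 to 0.178), and of the 8 metal-handling calls 0 and 1 did (up to 0.266 and 0.227). Without WT replicate 2, 3 and 6 stood (up to 0.0971 and 0.0910). At day 4 the medians of the 2 lists were -0.15 and 0.03. With length and GC offsets 5 cholesterol genes were lower and 1 higher, and 2 metal-handling genes were higher and 4 lower.

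Of 22 Hox genes tested 4 were higher and 0 lower, and 5 and 0 with length and GC offsets. Over all genes tested, without the offsets, 10.5% were higher and 9.14% lower. Hoxd8 had 0.849 and 1.37 CPM in S4KO against 0.0479 and 0.151 CPM in WT, and 12 more listed Hox genes did not pass the count filter. Of 32 germline genes 6 were higher and 4 lower, and 5 and 3 with length and GC offsets: Sycp1, a synaptonemal complex protein, had 30.8 and 29.7 CPM in S4KO against 3.81 and 4.24 CPM in WT (2.91 ± 0.41, adjusted p = 0.00559), and Sycp3, of the same complex, had 40 and 68.4 CPM against 193 and 160 CPM in WT (-1.70 ± 0.36, adjusted p = 0.0121). The call of Sycp1 was lost without WT replicate 1 (0.0946). Of the 10 germline calls 1 stood without WT replicate 1 (up to 0.271), 2 without S4KO replicate 1 (up to 0.279), 4 without WT replicate 2 (up to 0.129) and 7 without S4KO replicate 2 (up to 0.238). None of the 4 Hox calls stood without WT replicate 1 (0.119 to 0.162) or S4KO replicate 1 (0.0673 to 0.127).

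**Figure D4:**
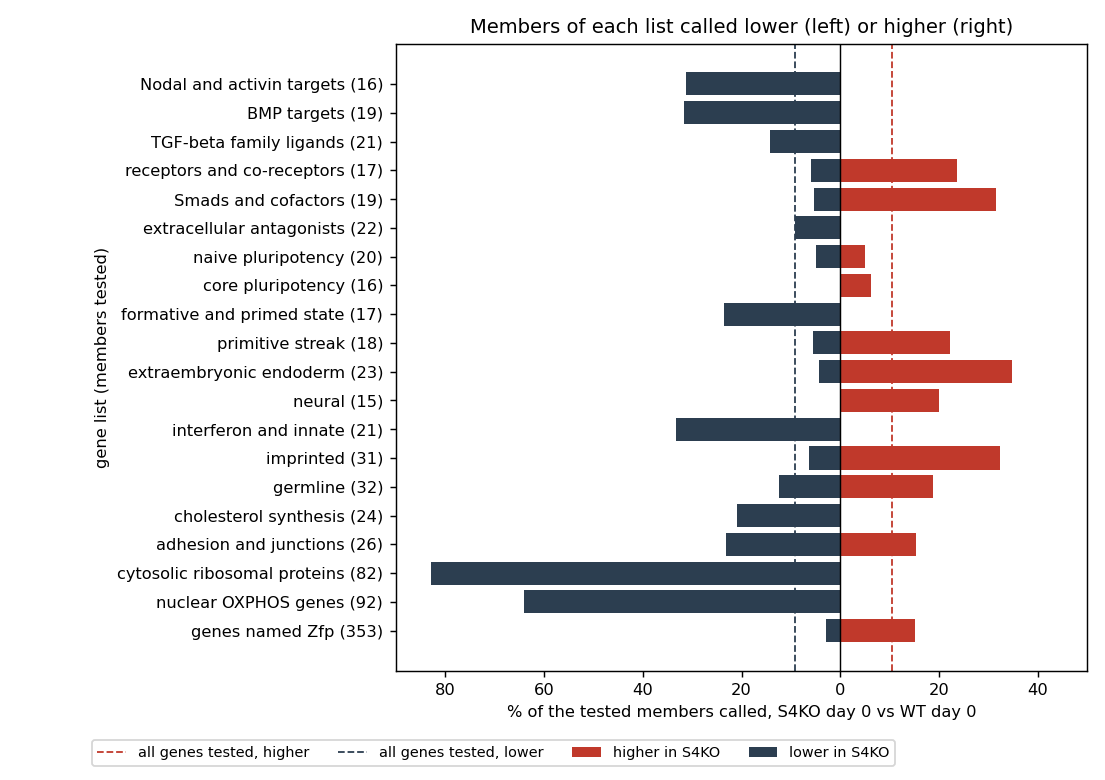
Share of the tested members of each list (number tested in brackets) called lower (bars to the left) or higher (bars to the right) in S4KO than in WT at day 0, in %, with dashed lines at the shares over all genes tested, 10.5% higher and 9.14% lower. Ribosomal protein and nuclear respiratory genes have the longest bars to the left, and extraembryonic endoderm, imprinted and Smad genes the longest to the right.

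Whole chromosomes differed in level as well. Over 744 expressed genes of chromosome 8 the median log2 fold change was 0.51 at day 0 and 0.58 at day 4, against 0.02 and -0.03 over all 14057 expressed genes, and 211 of them were called higher and 25 lower at day 0. It was 0.47 with length and GC offsets and 0.69 against S23DKO. Every 20 Mb stretch of chromosome 8 had a positive median at both days, from 0.116 to 0.752 at day 0 and from 0.417 to 0.805 at day 4. By library, the median level of chromosome 8 genes relative to those outside chromosomes 8, 14 and 19 was 0.38 to 0.46 above the 12-library mean in the 4 S4KO libraries, and 0.09 to 0.37 below it in the other 8. Chromosome 19 had medians of 0.17 and 0.28 at day 0 and day 4. Chromosome 14 had medians of -0.25 and -0.32, with -0.68 and -0.72 over the 181 genes between 50 and 70 Mb and 0.07 and -0.06 over the rest. The rest was mixed. The 86 genes between 0 and 20 Mb had -0.40 and -0.435, and the 20 Mb stretches from 80 Mb on had 0.44 to 0.76 and 0.204 to 0.472. The values are descriptions chosen after they were seen, and DNA copy number was not measured.

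Single genes show the pattern. Glg1, a Golgi glycoprotein gene on chromosome 8 (111154421 to 111259216), had 483 and 289 CPM in S4KO against 54.2 and 74.2 CPM in WT (2.59 ± 0.27, adjusted p = 0.00207). Its neighbours Rfwd3, a ubiquitin ligase of DNA repair (341 and 279 CPM in S4KO against 84.9 and 89.2 CPM in WT, 1.83 ± 0.21, adjusted p = 0.00226), and Pdpr rose with it, and all 3 were called without each of the 4 libraries in turn (up to 0.0490). On chromosome 14, Osgep, a tRNA-modifying enzyme (50906478 to 50924893), had 27.2 and 34.3 CPM in S4KO against 133 and 115 CPM in WT (-2.01 ± 0.22, adjusted p = 0.00211), and Nedd8, a ubiquitin-like modifier (55662263 to 55672124), had 52.3 and 57.7 CPM against 220 and 166 CPM in WT (-1.81 ± 0.22, adjusted p = 0.00311). Both were lower at day 4 as well (-1.07 and -1.04, adjusted p 0.0337 and 0.0351), calls that were lost without any 1 of the 4 day 4 libraries (up to 0.134 without WT replicate 1, 0.0679 without WT replicate 2, 0.338 without S4KO replicate 1 and 0.0551 without S4KO replicate 2). Psme2 lies between 50 and 70 Mb on chromosome 14, and Otx2 just outside, at 48657677 to 48673819. The 148 expressed genes between 40 and 60 Mb, where Otx2 lies, had medians of -0.613 at day 0 and -0.684 at day 4. Smad1 (79338395 to 79399518) and Sall1 (89027235 to 89044162) lie on chromosome 8. Other genes named in the text on chromosomes 8 and 14 are not all marked as such. The part of the chromosome-wide levels in the difference of any single gene was not tested.

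**Figure D5:**
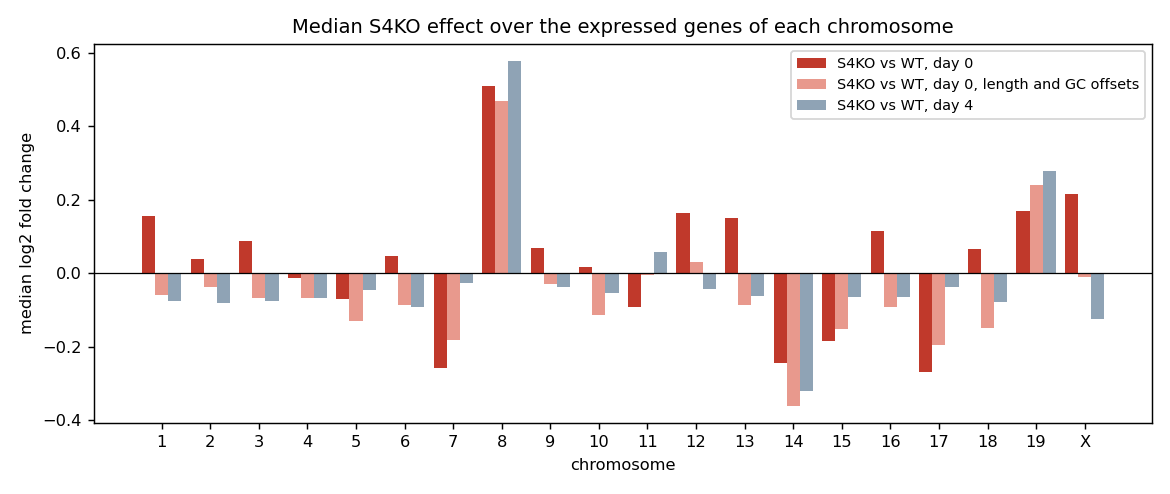
Median log2 fold change of S4KO against WT (vertical) over the expressed genes of each chromosome (horizontal), at day 0, at day 0 with length and GC offsets, and at day 4. Chromosome 8 reaches 0.51, 0.47 and 0.58, and chromosome 14 lies at -0.25, -0.36 and -0.32.

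The calls at day 4 and at day 0 contrast different libraries, but come from 1 fit in which all 12 libraries share the estimate of the spread. With the compared groups alone there were 4022 calls at day 0 and 128 at day 4. Of the 323 genes called at day 4, 113 (35%) were called in the same direction at day 0, 61 higher and 52 lower, and 15 in the opposite direction. They are 3.08% of the 3663 day 0 calls. Of all day 0 calls 68.8% had the same sign at day 4, against 57.5% of all genes tested. Of the 113 genes, 18 were chromosome 8 genes that were higher and 9 were chromosome 14 genes that were lower, and 96 were also called at day 0 with length and GC offsets. Among the 27 genes called in every fit that left out a day 0 library, 14 were called in the same direction at day 4. Syngr4, a synaptic vesicle protein gene, had 16 and 20.2 CPM in S4KO against 2.92 and 1.75 CPM in WT at day 0 (2.95 ± 0.41, adjusted p = 0.00531) and a log2 fold change of 5.82 at day 4 (adjusted p = 0.000550). Tnfrsf19, a Wnt-induced receptor on chromosome 14, had 5.05 and 3.23 CPM in S4KO against 15.8 and 18.3 CPM in WT at day 0 (-2.04 ± 0.29, adjusted p = 0.00559) and -2.80 at day 4 (adjusted p = 0.00143). The calls of these 2 genes at day 4 stood without each of the 4 day 4 libraries (up to 0.028 for Tnfrsf19).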

How the data were processed

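RNA was taken from E14Tg2a.IV ES cells or embryoid bodies and made into TruSeq v2 libraries, 2 per group in 6 groups, per the labels' protocols. The counts were deposited by the authors as integers, 1 row for each Ensembl gene ID, and no scaling is recorded. The FPKM values were deposited by the authors per gene symbol. Cufflinks, StringTie, DESeq2 and build mm10 appear, with no role given, per the submitters' processing notes; aligner, annotation and strand setting are not given in the sources used here. Without a stated strand setting, reads of overlapping genes cannot be told apart. Groups come from the titles. Of 32285 gene IDs, 32235 matched GENCODE M21 (mm10), which gave symbols, positions, exon length and GC content. Values of 1 (4966) were rarer than values of 2 (6989), which a direct tally of reads would not usually give. No library was a copy of the other replicate of its group (chi-square per gene between replicates 31.2 to 248 over genes with at least 20 counts).

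Counts of all 12 libraries were fitted with edgeR 4.0.16 (quasi-likelihood test, TMM, filterByExpr, 1 coefficient per group, R 4.3.3), which kept 18693 genes; adjusted p-values are Benjamini-Hochberg values over all of them, and 0.05 was the threshold. CPM use TMM-scaled library sizes. The scripts were tested on simulated data. Alternatives were RLE factors, DESeq2 1.42.0, a filter at 1 CPM in 2 libraries or none, limma 3.58.1 on FPKM values as log2(FPKM + 0.1) or log2(FPKM + 1), the second also unfiltered, only the groups compared, the replicate number as a block, offsets for exon length and GC (splines with 5 degrees of freedom), and leaving out each library in turn, where a group left with 1 library is assumed to vary like the others. The offsets with a library left out, and a block with crossed numbers, were added after seeing the data. The labels do not say that replicate numbers mark a shared culture.

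The text names the 14 largest rises and drops among called genes without overlap and with a mean of at least 5 CPM in the higher group, passing over gene models without an established name; Smad1 to Smad9; Hprt; the Nodal and BMP targets, of which some results are not reported here; and up to 5 members of each of 42 lists. Genes named for chromosome position, neighbourhood, day 4 calls or antigen processing, and pluripotency and imprinted genes named without a call, were picked with their values in view. The comparison, the lists and the rule were chosen with earlier results of these data known. Promoter windows come from RefSeq. Python 3.11.15, pandas 2.3.3 and matplotlib 3.10.9 handled tables and figures.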

Additional observations from a re-analysis of the deposited data

Results flagged for a closer look

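For 17 genes named in the text the S4KO effect at day 4 differed from that at day 0 by edgeR's test of the difference itself (log2, day 4 minus day 0, 2 libraries per group). All 17 differences were negative, as were 26 of the 28 that passed over all genes. The 17 were partly picked with these values in view, so their shared sign is a description only. Genes of endoderm and streak were Gata4 (-4.92), Gata6 (-5.54), Sox7 (-4.51), Pdgfra (-4.98), Lama1 (-2.86), Eomes (-5.39) and Foxa2. The fitted value of Foxa2 was -11.58, which rests on 0 counts in WT at day 0 and measures no size. Chml (-6.37), Atp7a (-5.29), Nr2c2 (-4) and Wnk3 (-3.68) were low in WT at day 0. The co-receptor Tgfbr3 had a difference of -4.01. Adamts9 (-3.43), Cemip (-7.84), Fgf10 (-5.08) and Srgn (-5.16) were named after their values were seen. Cemip, a hyaluronan-binding protein gene, had 1.78 and 0.733 CPM in S4KO against 0.12 and 0.173 CPM in WT at day 0, and 0.566 and 0.715 CPM in S4KO against 17.3 and 17.5 CPM in WT at day 4. The mitochondrially encoded mt-Nd4l differed by -3.17, a call that was lost without WT day 0 replicate 1 (0.148), WT day 4 replicate 1 (0.0825), S4KO day 0 replicate 1 (0.0809), S4KO day 4 replicate 1 (0.0772) or S4KO day 4 replicate 2 (0.0596). The Tgfbr3 difference was lost without WT day 0 replicate 1 (0.136), WT day 0 replicate 2 (0.0534), WT day 4 replicate 1 (0.0617) or S4KO day 0 replicate 1 (0.0507).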

How the results depend on the processing

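For S4KO against WT at day 0, RLE factors, either other filter, DESeq2, limma, the offsets and the fit of the compared groups alone kept the count within 1.5 times of 3663, while leaving out 1 library gave 42 to 3609 calls. Offsets combined with a library left out gave 222 without WT replicate 1, 1824 without WT replicate 2 and 716 without S4KO replicate 1. Under those combined fits the log2 fold change changed sign for Bax (0.01) and Phlda3 (0.03) without WT replicate 1 and for Phlda3 (0.02) without S4KO replicate 2, and Foxh1 reached 1.04 without WT replicate 2 and 0.92 without S4KO replicate 2. At day 4, 323 calls became 754 with no filter, 842 with offsets, 128 with the compared groups alone, 1057 with DESeq2 and 646 with unfiltered limma, and 78 to 587 with a library left out. For the difference between days, 28 became 47 with RLE factors, 61 with the 1 CPM filter, 862 with no filter, 90 with offsets, 1553 with DESeq2, and 213, 107 and 244 with limma at pseudocounts of 1, 0.1 and 1 without a filter, and 13 to 1998 with a library left out. Against S23DKO, 1034 became 1592 with no filter, 2136 with offsets, 393 with the compared groups alone and 2127 with DESeq2, and 315 to 1618 with a library left out. The cause was not tested. With the replicate number as a block the counts were 3408, 281, 24 and 945 in the same order. The deviations of same-numbered libraries, with 2 numbers per group, had r over genes of -0.149 for S4KO and WT at day 0, 0.044 for S4KO and WT at day 4, 0.245 for S4KO and S23DKO at day 0 and 0.489 for S4KO at day 0 and WT at day 4, so the numbers were not taken as pairs, and with the numbers crossed, a setting chosen after seeing the data, the block gave 3794. The precision is limited by 2 libraries per group.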
